A study of Mus musculus with 3 samples.

Results

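Proteases of the epidermis and the proteins that hold them in check were followed across 3 RNA sequencing libraries of mouse keratinocytes, the epithelial cells of the epidermis. They were picked by a rule on gene names, which took every serpin symbol except Serping1, every kallikrein symbol with a number (Klk), and 16 further genes for proteases, inhibitors and the urokinase receptor. The names matched 110 genes, of which 35 reached a scaled level of 1 CPM (counts per 1000000 gene counts, with library sizes adjusted by TMM factors) in at least 1 library, out of 11865 genes that did so in all. The 35 were 16 of 67 serpins, 3 of 27 kallikreins and all 16 further genes. Of these, 29 reached 1 CPM in every library. Klk7, Serpinb6c and Spink5 did so only in wt, Serpini1 only in the library labelled ARPC4 ko, Tmprss4 in all but the Nrf2-EGFP library and Serpinf1 in all but wt. These 6 entered through the libraries in which they were high, so their differences are partly built into their selection. At the edge of the filter, Serpinb6c had a highest value of 1.38 CPM and Klk7 of 1.60, whereas the pseudogene Serpina3d-ps, just outside, had 0.889 and Serpinb1a 0.667.

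The cultures were C57BL/6 keratinocytes immortalised with SV40 and growing exponentially, and the labels give 1 library to each genotype: wt, ARPC4 ko and Nrf2-EGFP. The protein ARPC4 belongs to the Arp2/3 complex, the nucleator of branched actin filaments, and Nrf2 is the transcription factor that controls antioxidant genes, which the label joins to EGFP, a fluorescent protein. The title of the ARPC4 ko library names Cre and that of the Nrf2-EGFP library the word High. How Cre or the fusion was delivered, and whether a line is 1 clone, are not stated in the labels. Without a second library per genotype, the spread between cultures was not measured, no difference below has a replicate check and p-values are not used. The ranges that follow a fold in parentheses are 95% counting intervals (exact, Clopper-Pearson), which compare libraries and cover counting error only. A gene is said to pass the size rule where the log2 ratio of CPM + 0.5 is at least 1 in size and that interval excludes a ratio of 1. Differences between libraries can reflect fewer cells of one kind or less RNA per cell, which bulk counts cannot tell apart.

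Depth was similar, with 22924294 gene counts for wt, 23033863 for ARPC4 ko and 25723959 for Nrf2-EGFP. Arpc4 had 94.2, 61.0 and 98.4 CPM in the same order, so that the library labelled ARPC4 ko lay 1.54-fold (1.44 to 1.65) below wt. Nfe2l2, the gene of Nrf2, had 224.7, 179.5 and 166.4 CPM, and was 1.35-fold (1.30 to 1.41) below wt in the library labelled Nrf2-EGFP. Which part of Arpc4 was deleted, and whether the fusion is read as Nfe2l2, are not stated. The labels are therefore used below as names of libraries. All 10 keratinocyte markers looked for were measured. Their summed level was 25230 CPM for wt, 14679 for ARPC4 ko and 19326 for Nrf2-EGFP. Fibroblast markers summed to 1.07 to 2.50 CPM with 6 of 8 at 0 in every library (Col1a2, Col3a1, Pdgfrb, Dcn, Lum and Thy1), immune markers to 7.43 to 10.7 CPM with Cd3e, Cd207 and Adgre1 at 0, and melanocyte markers to 2.17 to 5.35 CPM with Tyr, Dct and Sox10 at 0. The endothelial list, with 3 of 6 measured (Pecam1, Eng and Flt1) and none at 0, summed to 27.7 CPM for wt, 54.1 for ARPC4 ko and 63.2 for Nrf2-EGFP. The part of these markers in the differences below was not tested.

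Epidermal proteolysis works as a set of cascades held by matched inhibitors. Urokinase and its receptor turn plasminogen into plasmin at the cell surface, and serpins of the plasminogen activator inhibitor type stop it by forming a covalent complex with the protease. In the outer layers, kallikreins cut the corneodesmosomes that hold dead cells together, LEKTI (the product of Spink5) restrains the kallikreins, and the membrane proteases matriptase and prostasin act together upstream, under the Kunitz-type inhibitors Spint1 and Spint2. Cathepsins do the bulk proteolysis of lysosomes, and clade B serpins act mostly inside the cell against proteases that leak or are delivered there. Terminal differentiation of keratinocytes is the usual setting in which kallikreins, Spink5 and Asprv1 are switched on.

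Across the whole group, a minority of members passed the 2-fold size rule against wt, with lower calls more common than higher ones. With a 1.5-fold threshold, 18 of 35 passed in ARPC4 ko (17.1% of all genes) and 14 of 35 in Nrf2-EGFP (14.3%). In the library labelled ARPC4 ko, 4 of 35 measured members passed the size rule on the higher side of wt, where 4.7% of all 11865 genes did, and 7 as lower, where 2.06% of all genes did. In the library labelled Nrf2-EGFP, 3 passed as higher (3.57% of all genes) and 9 as lower (2.05% of all genes). Lower calls thus made up a larger share of the members than of all genes in both comparisons, which use the same wt library. The same shares of all genes are those to set beside the calls of each smaller group and list below. Of the lower members, Klk7, Serpinb6c and Spink5 had passed the filter only through wt. Of the higher ones, Serpini1 had passed it only through ARPC4 ko and Serpinf1 only through the libraries other than wt. The median log2 fold of the members was -0.15 in ARPC4 ko (-0.045 with total-count scaling) and 0.06 in Nrf2-EGFP (-0.12 with no filter on low counts), against -0.01 and 0.00 over all genes. Between ARPC4 ko and Nrf2-EGFP, a comparison that does not use wt, 3 members were higher in ARPC4 ko (2.01% of all genes) and 2 lower (0.961% of all genes), with a median of -0.08 (0.03 with total-count scaling) against -0.02 over all genes. Altogether 16 members passed in at least 1 of the 3 comparisons and 19 in none. With a pseudocount of 2 CPM, which weighs low counts less, all calls of Klk7, Klk10, Serpinb6c, Serpinf1, Serpini1, Serpina3g, Serpina3h and Tmprss4 were lost. The 35 members took 0.408% of the gene counts in the wt library, 0.441% in ARPC4 ko and 0.457% in Nrf2-EGFP. Per kilobase of exon, a scale on which genes can be set side by side, the most abundant in wt were Ctsd (339.1 scaled CPM per kilobase), Serpinb5 (197.9), Serpinh1 (114.5), Ctsl (102.2), Serpinb2 (100.7) and Plau (82.2).

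**Figure D1:**
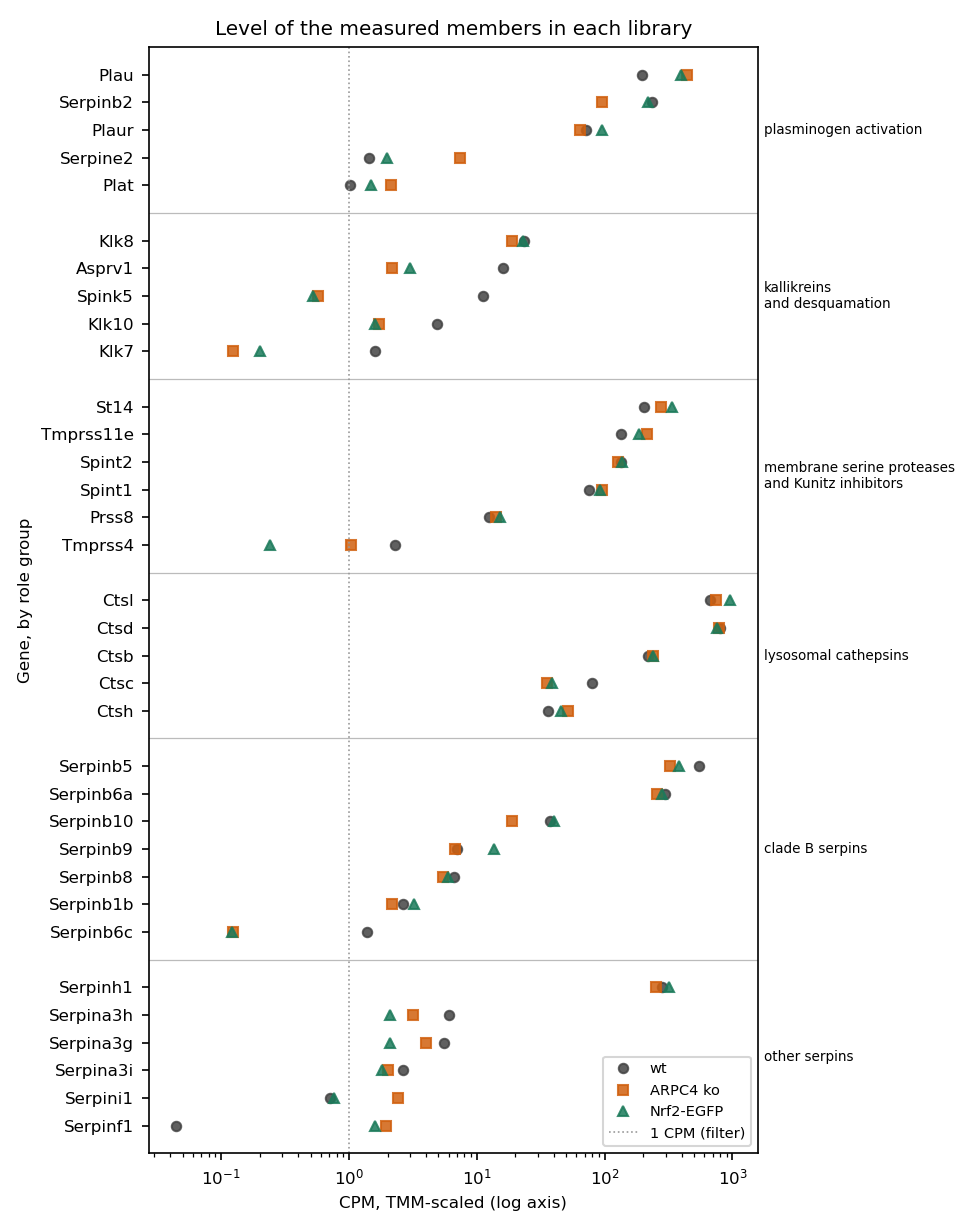
Level of 34 measured members in CPM (x axis, log scale) in the wt (circles), ARPC4 ko (squares) and Nrf2-EGFP (triangles) libraries, 1 point per library, grouped by role, with the 1 CPM filter as a dotted line. Asprv1, Spink5, Klk10, Klk7, Ctsc and Serpinb6c lie lower in both other libraries than in wt, while Plau lies higher in both.

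Urokinase, its receptor and the serpins that inhibit it did not stand on one side of wt. Of 6 measured members of the plasminogen activation group, 2 passed as higher than wt and 1 as lower in ARPC4 ko (median log2 fold 0.72), and 2 higher and none lower in Nrf2-EGFP (median 0.40). Plau encodes urokinase and lies on chromosome 14 (20836660 to 20843385 in GRCm38). It had 4374 counts or 194.5 CPM in wt, 10740 or 441.8 in ARPC4 ko and 9858 or 396.7 in Nrf2-EGFP. The wt library was thus the lowest, by 2.27-fold (2.19 to 2.35) against ARPC4 ko and 2.04-fold (1.97 to 2.11) against Nrf2-EGFP, the latter close to the threshold with a log2 fold of 1.03. The other libraries differed from each other by 1.11-fold (1.08 to 1.14). Plaur, the receptor that holds urokinase at the cell surface, had 71.3 CPM in wt, 64.2 in the ARPC4 ko and 95.6 in the Nrf2-EGFP library. Like Plau it lay above wt in Nrf2-EGFP (ratio 1.34, 1.26 to 1.43), but not in ARPC4 ko (0.901, 0.840 to 0.966). Plaur passed in no comparison. Plat, the tissue-type activator, was near the filter with 23, 52 and 37 counts.

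Inhibitors of plasminogen activators differed from each other in their pattern. Serpine2 (protease nexin 1), which inhibits thrombin and urokinase, had 32 counts or 1.42 CPM in wt, 178 or 7.32 in ARPC4 ko and 49 or 1.97 in Nrf2-EGFP. Its highest level was in the ARPC4 ko library, 5.15-fold (3.52 to 7.75) above wt and 3.71-fold (2.69 to 5.204) above Nrf2-EGFP. Serpinb2 (PAI-2), a clade B serpin that stays mostly inside the cell, ran the other way, with 5320 counts or 236.6 CPM in wt, 2302 or 94.7 in ARPC4 ko and 5404 or 217.5 in Nrf2-EGFP. Here ARPC4 ko was the low library, 2.50-fold (2.38 to 2.62) below wt and 2.30-fold (2.19 to 2.41) below Nrf2-EGFP. The plasmin inhibitor Serpinf2 was under the filter with 5, 8 and 2 counts.

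Per kilobase of exon, Serpinb2 and Plau were the most abundant of this group in wt, at 100.7 and 82.2 scaled CPM per kilobase, above Plaur (27.2). In the library labelled ARPC4 ko the order was Plau 186.6, Serpinb2 40.3 and Plaur 24.5, and in Nrf2-EGFP it was Plau 167.6, Serpinb2 92.6 and Plaur 36.5. Urokinase thus stood first in both of the latter libraries and next to its intracellular inhibitor Serpinb2 in wt.

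Of 5 measured genes of the kallikrein and desquamation group, Asprv1, Spink5, Klk10 and Klk7 passed as lower in both libraries and none as higher. Spink5 and Klk7 had reached the filter only through wt, and the group medians of -1.75 in ARPC4 ko and -1.58 in Nrf2-EGFP are the log2 folds of Klk7 itself. Between ARPC4 ko and Nrf2-EGFP none of the 5 passed (median -0.17). Asprv1, the retroviral-like aspartic protease that processes profilaggrin, had 362 counts or 16.1 CPM in wt, 53 or 2.18 in ARPC4 ko and 75 or 3.02 in Nrf2-EGFP. Its level was 7.38-fold lower (5.52 to 10.05) in ARPC4 ko and 5.33-fold lower (4.15 to 6.93) in Nrf2-EGFP, and the interval between those libraries included a ratio of 1 (ratio 0.722, 0.498 to 1.04). Spink5 went from 252 counts (11.2 CPM) in wt to 14 (0.576) in ARPC4 ko and 13 (0.523) in Nrf2-EGFP, lower by 19.5-fold (11.4 to 36.1) and 21.4-fold (12.3 to 40.8). The ARPC4 ko and Nrf2-EGFP libraries thus held nearly the same few Spink5 reads, with a ratio of 1.101 (0.480 to 2.54) between them.

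The kallikreins lie in 1 array on chromosome 7, where 27 of them span 539.2 kb (43690418 to 44229618 in GRCm38), and 3 of them were measured. Klk10 (43781035 to 43785410) had 110, 42 and 40 counts in wt, ARPC4 ko and Nrf2-EGFP, or 4.89, 1.73 and 1.61 CPM, so both other libraries were low, by 2.83-fold (1.97 to 4.14) and 3.04-fold (2.098 to 4.48). Klk7 (43811294 to 43816359), the chymotrypsin-like enzyme of the stratum corneum, had 36, 3 and 5 counts, and was lower by 13.0-fold (4.10 to 65.8) and 7.96-fold (3.11 to 25.97). Klk8 (43797577 to 43803826), a trypsin-like enzyme also called neuropsin, lies between them and had 525, 455 and 572 counts, or 23.3, 18.7 and 23.0 CPM. It passed in no comparison, at 1.25-fold lower (1.098 to 1.42) in ARPC4 ko and a ratio of 0.986 (0.874 to 1.11) in Nrf2-EGFP. Per kilobase of exon Klk8 was the most abundant kallikrein, at 15.2 scaled CPM per kilobase in wt against 3.56 for Klk10 and 0.845 for Klk7. A gene on the opposite strand, 2310002F09Rik, overlaps 24.8% of the Klk8 exons and had 24, 10 and 24 counts of its own. The other kallikreins with any count were Klk5 (2, 0 and 0), Klk6 (13, 3 and 13), Klk9 (1, 2 and 0), Klk12 (0, 0 and 1) and Klk14 (2, 0 and 0), all under the filter, at which depth no difference between libraries was read.

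**Figure D2:**
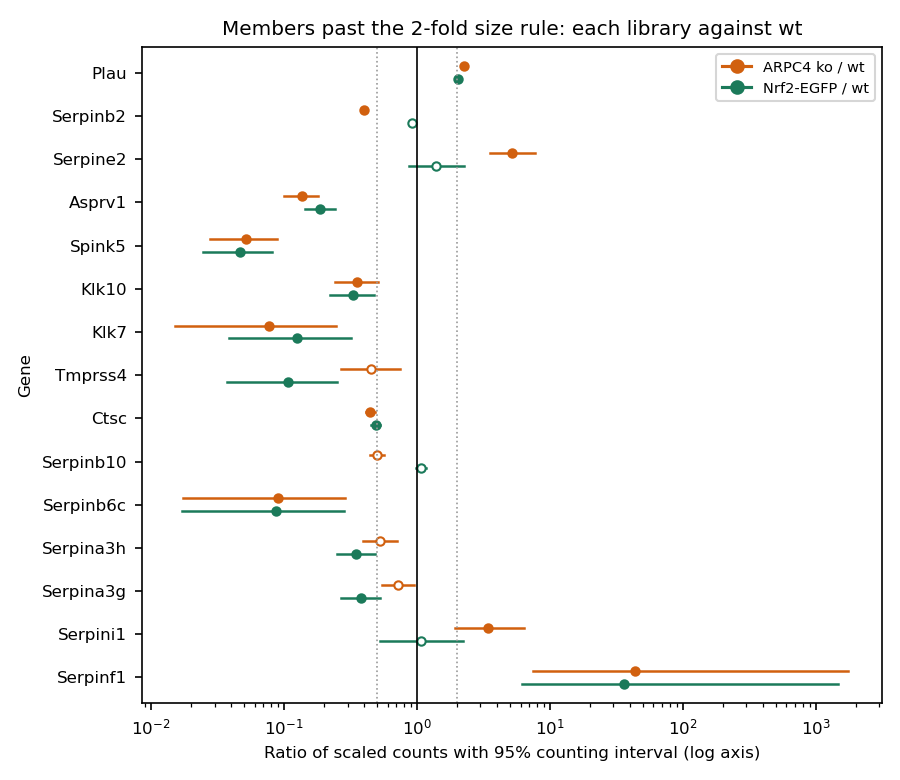
Ratio of scaled counts to wt (x axis, log scale) for 15 members past the 2-fold size rule in any of the 3 comparisons, with 95% counting intervals as lines, for ARPC4 ko (orange) and Nrf2-EGFP (green). Filled points passed the rule against wt, open points did not, and dotted lines mark ratios of 0.5 and 2. The wide intervals of Serpinf1, Serpinb6c and Klk7 come from libraries with 1 to 5 counts.

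The proteins that kallikreins act on or work beside were examined as a list of 17 genes, of which 11 were measured. In the library labelled ARPC4 ko 5 passed as lower than wt and 1 as higher (median log2 fold -0.85). In Nrf2-EGFP 5 passed as lower and none as higher (median 0.17). Of all 11865 genes, 2.06% passed as lower in ARPC4 ko, 2.05% in Nrf2-EGFP, and 133 genes did so in both. The same 5 genes of the list passed as lower in both, namely the desmosomal cadherins Dsg1a, Dsg1b and Dsc1, corneodesmosin (Cdsn) and Krtdap. Cdsn, a substrate of Klk7, had 416, 80 and 57 counts, or 18.5, 3.29 and 2.29 CPM. Dsg1b had 175, 7 and 14 counts and Dsg1a 103, 2 and 6. Dsg1a, Dsg1b and Krtdap, like Klk7, reached 1 CPM only in wt, so that being lower elsewhere is partly built into their selection, whereas Cdsn, like Klk10, was above 1 CPM in every library. The 1 gene of the list that passed as higher in ARPC4 ko was Il1a, the cytokine interleukin 1 alpha, with a log2 fold of 1.02.

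The membrane-bound serine proteases and their Kunitz inhibitors lay mostly within 2-fold of wt. None of 6 passed in the library labelled ARPC4 ko (median log2 fold 0.26), and in Nrf2-EGFP Tmprss4 alone passed, as lower (median 0.26). St14 encodes matriptase and had 202.4 CPM for wt, 278.1 for ARPC4 ko and 333.6 for Nrf2-EGFP, that is 1.37-fold (1.32 to 1.43) and 1.65-fold (1.59 to 1.71) above wt. Tmprss11e (DESC1) had 133.7, 213.0 and 186.3 CPM, or 1.59-fold (1.52 to 1.67) and 1.39-fold (1.33 to 1.46) above wt. Both proteases thus stood above wt in both libraries without reaching 2-fold. Prss8 (prostasin), the partner of matriptase, had 281, 346 and 374 counts and stood at most 1.205-fold above wt. Of the inhibitors, Spint1 (HAI-1) had 76.0, 95.6 and 91.3 CPM, and Spint2 (HAI-2) 134.0, 127.6 and 136.6. Their ratios to wt were 1.26 (1.18 to 1.34) and 1.201 (1.13 to 1.28) for Spint1 and 0.952 (0.905 to 1.001) and 1.02 (0.970 to 1.07) for Spint2. Tmprss4, with few reads, had 51 counts in wt, 25 in the ARPC4 ko and 6 in the Nrf2-EGFP library. It missed the filter only in the latter, so its low level there is partly built into its selection. The Nrf2-EGFP library was the lowest, 9.39-fold (4.03 to 26.8) below wt, and ARPC4 ko stood 4.26-fold (1.71 to 12.7) above it. ARPC4 ko itself was 2.21-fold (1.34 to 3.71) below wt, with a log2 fold of -0.86 that did not pass. Gm17099, on the opposite strand, covers 15.9% of its exon bases and had 0, 1 and 0 counts. Summed per kilobase of exon, this group had 130.2 scaled CPM per kilobase for wt, 169.4 for ARPC4 ko and 169.4 for Nrf2-EGFP.

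Of the 5 lysosomal cathepsins, Ctsc passed as lower in both other libraries and the other 4 did not pass (group medians 0.12 in ARPC4 ko and 0.13 in Nrf2-EGFP on the log2 scale). Ctsc encodes cathepsin C (dipeptidyl peptidase 1), which activates serine proteases of immune granules. It had 1790 counts or 79.6 CPM in wt, 862 or 35.5 in ARPC4 ko and 964 or 38.8 in Nrf2-EGFP. The wt library was higher than both, by 2.24-fold (2.07 to 2.44) and 2.05-fold (1.90 to 2.22), and the latter is just past the threshold with a log2 fold of -1.03. ARPC4 ko and Nrf2-EGFP differed by a ratio of 0.914 (0.833 to 1.003). Ctsd, the aspartic protease cathepsin D, was the most abundant member of all per kilobase of exon and stayed close to wt, at 797.2, 785.6 and 762.5 CPM. Ctsl (cathepsin L) had 662.9, 745.5 and 961.3 CPM, and the Nrf2-EGFP library stood 1.45-fold (1.42 to 1.48) above wt. Ctsb had 218.1, 236.8 and 239.1 CPM and Ctsh 36.2, 51.8 and 45.6 CPM, with Ctsh 1.43-fold (1.31 to 1.56) above wt in ARPC4 ko. Annotated neighbours share 12.8% of the exon bases of Ctsb (Fdft1, opposite strand), 34.4% of those of Ctsd (Gm49369, same strand) and 26.8% of those of Ctsl (Gm47123, opposite strand). As the strand setting of the counting is not given, reads in the stretch shared by Ctsb and Fdft1 cannot be assigned to either gene with certainty, while Gm49369 and Gm47123 are not among the genes counted.

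Clade B serpins, the intracellular branch, sit in arrays on chromosomes 1 and 13, and 7 of 27 were measured apart from Serpinb2. None was higher by the rule in any comparison. Against wt, 1 of 7 passed as lower in ARPC4 ko (median log2 fold -0.25) and 1 in Nrf2-EGFP (median -0.08), in both cases Serpinb6c. That gene had reached the filter only through wt, so being lower elsewhere is partly built into its selection. Serpinb5 (maspin), a serpin that does not inhibit proteases and is typical of basal epithelium, was the most abundant, at 544.3 CPM in wt, 323.6 in the ARPC4 ko and 383.2 in the Nrf2-EGFP library. Its wt level was above both, by 1.68-fold (1.64 to 1.73) and 1.42-fold (1.38 to 1.46), short of the rule. Serpinb6a, an inhibitor of cathepsin G and trypsin-like proteases, had 298.8, 256.7 and 281.9 CPM, and Nqo2 on the opposite strand covers 14.1% of its exon bases. Serpinb9, the granzyme B inhibitor, had 156, 163 and 338 counts, or 6.94, 6.71 and 13.6 CPM. The Nrf2-EGFP library was the highest, 1.96-fold (1.62 to 2.39) above wt, and just missed the rule with a log2 fold of 0.92. Serpinb6c had 31 counts in wt and 3 in each of the other libraries, 11.2-fold (3.48 to 57.1) lower in ARPC4 ko and 11.4-fold (3.56 to 58.4) lower in Nrf2-EGFP. Serpinb8 (148, 133 and 149 counts) and Serpinb1b (59, 53 and 80) had intervals against wt that included a ratio of 1.

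On chromosome 1, 12 clade B genes span 749.3 kb (106861173 to 107610484), and the 4 measured ones are Serpinb5 at one end and Serpinb2, Serpinb10 and Serpinb8 at the other. Serpinb2 and Serpinb10 overlap, with 291 exon bases in common on the same strand, which is 12.4% of the exon bases of Serpinb2 and 8.34% of those of Serpinb10. Serpinb10, annotated as a polymorphic pseudogene, had 841 counts or 37.4 CPM in wt, 456 or 18.8 in ARPC4 ko and 996 or 40.1 in Nrf2-EGFP. As with Serpinb2, the ARPC4 ko library was the low one, 1.99-fold (1.78 to 2.24) below wt, just short of the rule with a log2 fold of -0.98, and 2.14-fold (1.91 to 2.39) below Nrf2-EGFP. How far reads of the shared exon bases or of transcripts running from one gene into the next enter the Serpinb10 count was not tested.

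RefSeq promoters (250 bases before to 50 after a start, GRCm38.p6) were found for 24 of the 35 measured members, 26 windows in all. The heptamer TGANTCA, which AP-1 factors bind and which reads the same on both strands, was in 7 of these windows, 26.9%, against 7.81% of all 32851 promoters in the table. The 7 windows belong to 6 genes, which are Serpinb5, Serpinb2, Serpinb10, Serpinb8, Plaur and Spint1. Serpinb2 has 2 starts whose windows overlap and hold the same heptamer, so 1 site is counted in both. All 4 measured clade B genes of chromosome 1 were thus among them. The core of the antioxidant response element, TGACNNNGC, searched on both strands and able to overlap an AP-1 heptamer, was in 3 of the 26 windows (Ctsd, Serpinb6a and Spint2), 11.5%, against 12.4% of all promoters. A match describes letters only and shows no binding. Measured members with no promoter in the table, which were not searched for either motif, included Ctsb, Ctsh, Plat, Plau, Prss8, Serpina3h, Spink5, St14, Tmprss11e and Tmprss4.

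The 250 bases before the start of the 4 chromosome 1 genes are shown 5′ to 3′ because these neighbours share the heptamer (in capitals) and yet differ in how far the libraries stood apart. They were picked for display after the match was seen. All are on the plus strand, at chr1:106860925-106861174 (Serpinb5), chr1:107511173-107511422 (Serpinb2, the first of its starts), chr1:107528753-107529002 (Serpinb10) and chr1:107589756-107590005 (Serpinb8).
Serpinb5: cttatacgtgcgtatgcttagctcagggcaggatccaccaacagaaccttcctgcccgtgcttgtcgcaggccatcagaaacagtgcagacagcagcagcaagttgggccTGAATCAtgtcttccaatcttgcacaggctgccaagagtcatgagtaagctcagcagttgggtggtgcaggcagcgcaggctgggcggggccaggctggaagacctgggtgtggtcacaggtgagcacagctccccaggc
Serpinb2: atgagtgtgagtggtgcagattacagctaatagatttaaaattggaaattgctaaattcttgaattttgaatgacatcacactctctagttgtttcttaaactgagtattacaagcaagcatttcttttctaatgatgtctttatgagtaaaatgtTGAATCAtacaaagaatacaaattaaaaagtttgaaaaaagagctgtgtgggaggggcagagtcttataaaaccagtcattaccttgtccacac
Serpinb10: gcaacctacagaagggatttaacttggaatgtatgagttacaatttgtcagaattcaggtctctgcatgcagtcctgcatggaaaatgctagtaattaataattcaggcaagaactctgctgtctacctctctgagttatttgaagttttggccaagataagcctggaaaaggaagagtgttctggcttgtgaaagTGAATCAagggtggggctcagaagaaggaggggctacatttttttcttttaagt
Serpinb8: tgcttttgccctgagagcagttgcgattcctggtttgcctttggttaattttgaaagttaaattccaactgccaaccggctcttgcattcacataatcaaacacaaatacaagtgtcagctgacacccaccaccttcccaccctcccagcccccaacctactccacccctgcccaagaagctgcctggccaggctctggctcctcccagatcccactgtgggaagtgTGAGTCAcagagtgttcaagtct
The heptamer begins 140 bases before the start in Serpinb5, 94 in Serpinb2, 54 in Serpinb10 and 23 in Serpinb8. Its letters are TGAATCA in the first 3 and TGAGTCA in Serpinb8, which holds another copy 13 bases after the start. Across these genes, the ratio of ARPC4 ko to wt was 0.594 (0.578 to 0.612) for Serpinb5, 0.400 (0.381 to 0.420) for Serpinb2, 0.502 (0.447 to 0.563) for Serpinb10 and 0.831 (0.653 to 1.06) for Serpinb8.

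The remaining serpins comprised 1 abundant gene that stayed close to wt and 5 scarce ones. Of the 6, 2 passed as higher and none as lower in ARPC4 ko (median log2 fold -0.23), and 1 as higher and 2 as lower in Nrf2-EGFP (median -0.19). Serpinh1 (HSP47), the collagen chaperone of the endoplasmic reticulum, had 279.7 CPM for wt, 252.7 for ARPC4 ko and 318.9 for Nrf2-EGFP, at most 1.26-fold apart in any comparison. Serpinf1 (PEDF), a secreted serpin known to restrain vessel growth, had 1 count in wt, 47 in the ARPC4 ko and 40 in the Nrf2-EGFP library. With 1 wt count its ratios of 43.5 (7.43 to 1753) and 36.2 (6.13 to 1465) are loosely bounded, and ARPC4 ko and Nrf2-EGFP differed by 1.201-fold (0.771 to 1.88). Serpini1 (neuroserpin), an inhibitor of tissue-type plasminogen activator, had 16, 59 and 19 counts. ARPC4 ko was the highest library, 3.41-fold (1.94 to 6.35) above wt and 3.17-fold (1.87 to 5.64) above Nrf2-EGFP. Serpini1 had reached the filter only through ARPC4 ko, and Serpinf1 only through the libraries other than wt. Their higher calls are thus partly built into their selection.

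Serpina3g, Serpina3h and Serpina3i stand next to each other on chromosome 12 (104236245 to 104269372) within an array of 28 clade A genes. Serpina3g had 125, 97 and 52 counts in wt, ARPC4 ko and Nrf2-EGFP, or 5.56, 3.99 and 2.09 CPM. Serpina3h, annotated as a transcribed pseudogene, had 135, 77 and 52. Both were lowest in the Nrf2-EGFP library and passed there, at 2.66-fold (1.91 to 3.74) and 2.87-fold (2.07 to 4.03) below wt. In ARPC4 ko they were 1.39-fold (1.06 to 1.84) and 1.90-fold (1.42 to 2.54) below wt. Serpina3i had 59, 49 and 45 counts, and its intervals included a ratio of 1 in every comparison. These copies resemble each other: of the 65-base windows of their annotated transcripts, 90.2% (Serpina3g), 85.4% (Serpina3h) and 90.2% (Serpina3i) occur in no other gene's transcripts. Reads without a unique alignment formed a separate entry (7.64%, 6.81% and 7.13% in wt, ARPC4 ko and Nrf2-EGFP), outside the gene counts. The counts of these copies can therefore miss reads from the shared windows, and how many was not tested.

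Under the filter, 20 serpins and 5 kallikreins had at least 1 count and 50 genes had none. The serpins included Serpinb1a (15, 10 and 8 counts), Serpina9 (11, 14 and 14), Serpinb9c (12, 4 and 3), Serpinb9b (5, 8 and 5), Serpina3e-ps (4, 16 and 2) and Serpina3d-ps (20, 6 and 9). The clade B genes between Serpinb5 and Serpinb2 on chromosome 1 were at or near 0, with Serpinb3a at 1, 0 and 0 counts, Serpinb7 at 4, 0 and 1, Serpinb11 at 3, 0 and 0 and Serpinb12 at 4, 2 and 1. Serpina1e, Serpina3b, Serpina3c, Serpina3f, Serpinb6b, Serpinb6e, Serpinb9f, Serpinb9g and Serpinc1 had between 1 and 7 counts in the library where they were highest. Where a library shows 0, the depth allows a level of up to 3 reads, which is 0.133 CPM for wt, 0.123 for ARPC4 ko and 0.121 for Nrf2-EGFP.

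**Figure D3:**
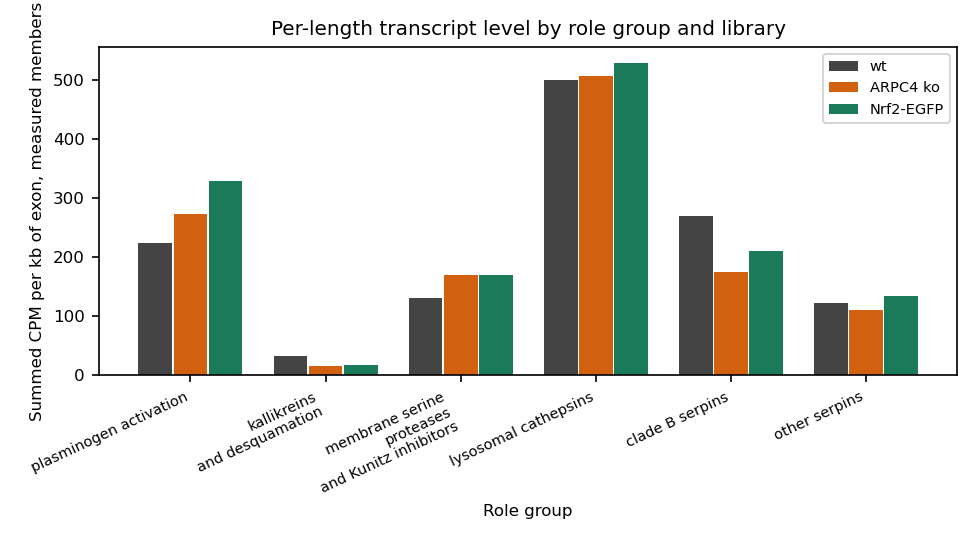
Sum over the measured members of each role group of scaled CPM per kilobase of exon (y axis), in wt (grey), ARPC4 ko (orange) and Nrf2-EGFP (green), 1 bar per library and no error bars, as each is 1 library. Cathepsins hold the largest sum, 499.1, 505.8 and 528.8, kallikreins and desquamation genes the smallest, 32.3, 15.0 and 18.3, and plasminogen activation goes from 223.5 in wt to 273.2 and 328.5.

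Set directly against each other, the libraries labelled ARPC4 ko and Nrf2-EGFP differed in 5 members past the rule. Serpine2, Serpini1 and Tmprss4 were higher in ARPC4 ko, and Serpinb2 and Serpinb10 were lower. Serpini1 had reached the filter only through ARPC4 ko, and Tmprss4 in every library but Nrf2-EGFP. The differences of Serpini1 and Tmprss4 are thus partly built into their selection. With libraries scaled by total counts the split was 3 higher and 1 lower, as Serpinb10 then had a log2 fold of -0.95. Serpinb9 was 2.03-fold lower (1.68 to 2.46) in ARPC4 ko than in Nrf2-EGFP by scaled counts and did not pass, since its log2 fold of CPM + 0.5 was -0.97. The members that were low in both libraries against wt (Asprv1, Ctsc, Klk10, Klk7, Serpinb6c and Spink5) and the 2 high in both (Plau and Serpinf1) had ratios between 0.613 and 1.201 here, and Plau alone among these 8 had an interval that excluded 1. These 8 were picked for lying on the same side of the 1 shared wt library, so their closeness here is partly built into their selection. Over all genes, 133 passed as lower and 251 as higher in both comparisons with wt. For Klk7, Serpinb6c and Spink5, which had few counts in both libraries, the intervals are wide and including 1 shows little.

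**Figure D4:**
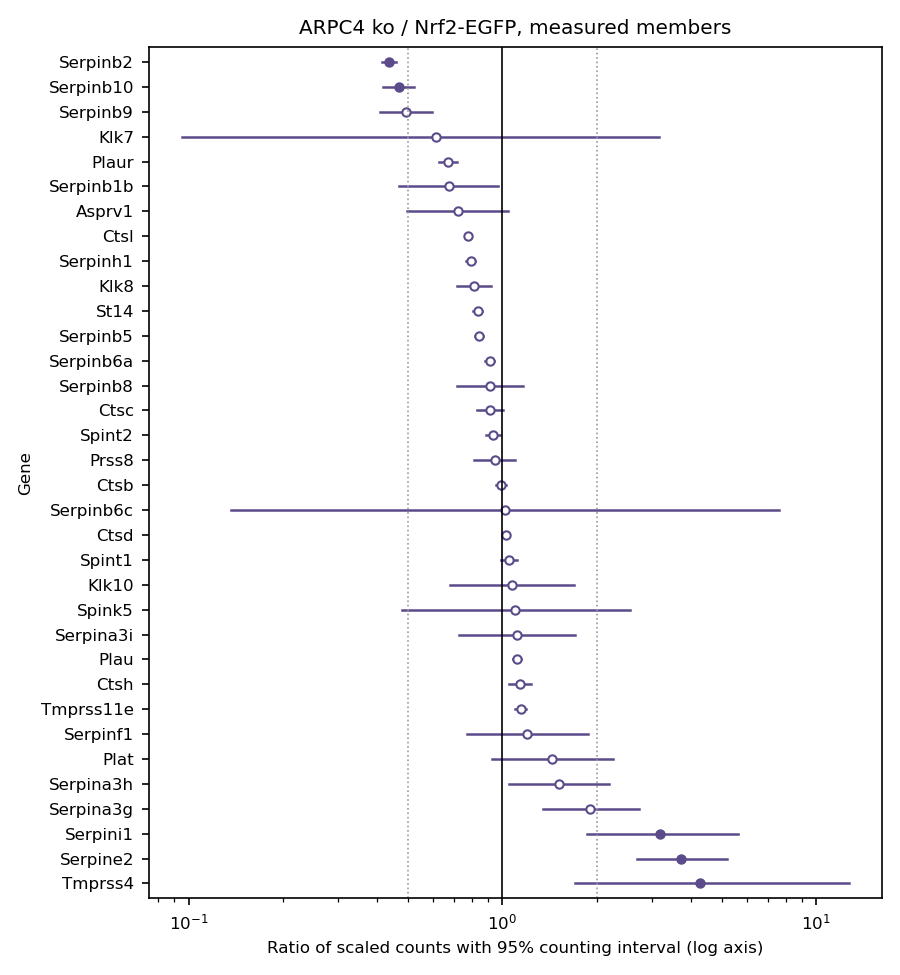
Ratio of scaled counts in ARPC4 ko to those in Nrf2-EGFP (x axis, log scale) for 34 measured members, ordered by ratio, with 95% counting intervals as lines and dotted lines at ratios of 0.5 and 2. Filled points, which are Serpinb2 and Serpinb10 at the low end and Serpini1, Serpine2 and Tmprss4 at the high end, passed the size rule.

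Further genes of the same systems were counted over fixed lists, of which the named genes are those furthest from wt. Ctsf is the exception and was named after it was seen to pass the rule. Of 15 measured genes of plasmin, coagulation and protease-activated receptors, 2 passed as higher and 1 as lower in ARPC4 ko against wt (median log2 fold 0.17). In Nrf2-EGFP 2 passed as higher and none as lower (median 0.20). Lrp1, the endocytic receptor that clears complexes of proteases with serpins, had 472, 1444 and 1183 counts and was 2.83-fold (2.55 to 3.15) and 2.27-fold (2.04 to 2.53) above wt. F2r, the thrombin receptor PAR1, had 269, 635 and 241 counts and was highest in ARPC4 ko, 2.18-fold (1.89 to 2.53) above wt. F3 (tissue factor) was lowest in that library, with 2987, 1256 and 2323 counts, 2.57-fold (2.41 to 2.75) below wt. Procr, the protein C receptor, had 538, 1074 and 1603 counts and passed in Nrf2-EGFP at 2.70-fold (2.44 to 2.98).

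Of 17 measured genes of the cysteine and aspartic protease system outside the members, 2 passed as higher and 2 as lower in each library against wt. Ctsz (cathepsin Z) had 311, 1190 and 894 counts and was above wt by 3.54-fold (3.12 to 4.02) and 2.60-fold (2.28 to 2.97). Casp14, the caspase of cornification that helps break down filaggrin, had 544, 217 and 197 counts and was below wt by 2.71-fold (2.31 to 3.19) and 3.05-fold (2.59 to 3.61). Csta1, of the cystatin A family, had 66, 20 and 26 counts and was also lower in both. The aspartic protease gene Bace2 had 3, 12 and 27 and passed as higher in Nrf2-EGFP, the 1 library through which it reached the filter, and Ctsf passed as higher in ARPC4 ko. Cathepsin genes thus stood on both sides of wt, with Ctsz above wt and Ctsc below it in the same libraries. A further list held serine protease inhibitors other than serpins, with the members Spink5, Spint1 and Spint2 left out. Of its 5 measured genes, 2 passed as higher in ARPC4 ko (median log2 fold 0.88) and 1 in Nrf2-EGFP (median 0.88). None of the 5 passed as lower. Slpi, an inhibitor of elastase, had 238, 927 and 692 counts, or 10.6, 38.1 and 27.8 CPM, and Wfdc2 had 882, 2256 and 1810 counts. Tfpi, the tissue factor pathway inhibitor, had 27, 64 and 9 counts and was 7.27-fold (3.599 to 16.6) higher in ARPC4 ko than in Nrf2-EGFP. In Nrf2-EGFP it lay 3.31-fold (1.51 to 8.01) below wt, just short of the rule with a log2 fold of -0.98. Aplp2, whose protein carries a Kunitz domain, had 687.7, 1040 and 1286 CPM and stayed under 2-fold.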

How the data were processed

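Polyadenylated RNA of 3 mouse keratinocyte cultures was sequenced, 1 library per genotype. Per the labels' protocols, RNA was extracted with TRIzol and sequenced from TruSeq Stranded mRNA libraries as 65 bp single-end reads. The submitters' processing notes name TopHat2 2.1.0, Bowtie 1.1, HTSeq and mm10. Their settings, strand option and annotation were not given in the sources used here. Values deposited by the authors were raw counts per gene, for 41214 identifiers a library. Totals that name no gene (9.08%, 8.22% and 8.48% of entries in wt, ARPC4 ko and Nrf2-EGFP) were left out.

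Symbols and coordinates came from GENCODE M21 (GRCm38), which named 40254 identifiers. Libraries were scaled with TMM factors (0.981, 1.06 and 0.966) of edgeR 4.0.16 in R 4.3.3, and genes with 1 CPM in any library were kept. The log2 fold is that of CPM + 0.5 and understates differences of low genes, whereas folds, ratios and intervals use scaled counts. With 1 library per genotype no test was made. Every member past the size rule was named, then the 3 most abundant per kilobase of each role group, and up to 4 genes of each further list by their largest difference from wt. Ctsf, Dsc1 and Il1a are outside this choice and were named after they were seen to pass. 1 member is included in the counts, medians and sums but is not reported here. The members and lists were chosen with earlier results of these data known. Alternatives were total-count scaling, DESeq2 1.42.0 size factors, other filters and pseudocounts, and a 1.5-fold threshold.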

Additional observations from a re-analysis of the deposited data

How the results depend on the processing

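The number of members past the size rule moved with the filter, the pseudocount and the threshold, and so did the share of all genes. In ARPC4 ko against wt it was 11 of 35 (6.76% of all genes), and became 5 of 22 with a filter of 10 CPM (4.01%), 6 of 35 with a pseudocount of 2 CPM (3.83%) and 18 of 35 with a 1.5-fold threshold (17.1%). In Nrf2-EGFP against wt it was 12 of 35 (5.61%), and became 5 of 22 with the stricter filter (3.58%) and 5 of 35 with the larger pseudocount (3.05%). Between ARPC4 ko and Nrf2-EGFP it was 5 of 35 (2.98%), and became 2 of 22 (1.22%), 3 of 35 (1.24%) and 8 of 35 (9.23%) under the same 3 settings. With DESeq2 size factors none of the 48 values of single named members changed its call. With the pseudocount of 2 CPM 14 of them fell under the threshold, all of members with few counts (Klk7, Klk10, Serpinb6c, Serpinf1, Serpini1, Serpina3g, Serpina3h and Tmprss4). With total-count scaling 1 did (Serpinb10), and with a pseudocount of 0.1 CPM Tmprss4 passed as lower in ARPC4 ko than in wt (log2 fold -1.07). No member past the rule changed direction.

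Total-count scaling moved the median log2 fold of all genes by 0.10 in ARPC4 ko against wt and by 0.12 in ARPC4 ko against Nrf2-EGFP. The members' median became -0.045 (from -0.15) and 0.03 (from -0.08), so the latter changed sign, as did that of Nrf2-EGFP against wt with no filter (-0.12, from 0.06). A filter on the mean of the libraries, chosen after seeing the data, kept 33 members. In the order used above, 9 (6.12% of all genes), 10 (5.10%) and 5 (2.53%) were past the rule, of which 5, 7 and 2 were lower. Depth limits Klk7, Serpinb6c and Serpinf1 most, with 1 to 5 counts in a library. No paired analysis was possible because each genotype has 1 library.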
